A study of Homo sapiens with 8 samples.

Results

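The genes described here encode PD-L1 and other ligands through which a tumour cell restrains lymphocytes, natural killer cells or macrophages, together with B2M and CMTM6, which carry such surface proteins. The 10 genes (CD274, PDCD1LG2, CD276, VTCN1, CD47, PVR, NECTIN2, B2M, CMTM6 and LGALS9) were taken by symbol, each with the probe set of highest mean signal, from 18417 measured genes. The set was selected on the measured rise of CD274 after CDK9 silencing, in the same 8 arrays, so the difference between the siRNA groups is given for them as a description, without a test. All cells were U2OS, an established human osteosarcoma line, transfected with siRNA at 10 nM and harvested after 72 h. In 4 cultures the siRNA targeted CDK9, the kinase that lets paused RNA polymerase II enter productive elongation. In the other 4 it was a non-targeting (nonspecific) siRNA, and both groups went through the same transfection. The sources used here do not say whether the CDK9 siRNA was a single sequence or a pool.

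PD-L1, the product of CD274, binds PD-1 on activated T cells and dampens their response. Its transcription is classically induced by interferon-gamma through JAK kinases, STAT proteins and the factor IRF1, and many tumour cells also express it without that signal. Other surface proteins act on other receptors: CD47 tells macrophages not to engulf the cell, PVR and NECTIN2 bind TIGIT and CD226 on lymphocytes, and B2M is the light chain without which class I HLA molecules do not reach the surface.

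Expression was read on 8 Affymetrix arrays as log2 values, and their number limits the precision. Replicate 1 of both groups (array set 1) had array medians of 5.80 and 5.85, and replicates 2 to 4 (array set 2) had medians of 6.99 to 7.04. The main fit therefore compared the siRNA groups only within a set. The signal of CDK9 itself was 8.0, 9.03, 9.09 and 9.04 after its own siRNA, replicates 1 to 4, against 9.80, 10.9, 10.9 and 10.9 after the non-targeting one, which is 28.4% of the control signal. Genes are called dim here where their mean log2 signal lay in the lowest 30% of all genes (below 6.14). Of 12 mesenchymal and osteoblast markers, those of the labelled lineage, 2 were dim. Of 21 leukocyte markers 14 were dim, among them PTPRC, and of 12 epithelial and endothelial markers 8 were dim. The mean log2 signal over the leukocyte markers was 5.91 to 6.05 in the CDK9 siRNA arrays of set 2 and 6.02 to 6.05 in the controls. The array measures RNA of the whole culture, where fewer cells expressing a gene and less RNA per cell cannot be told apart, and it does not measure protein at the cell surface.

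The sequence just before the start of CD274 is shown because it holds the letters through which interferon-induced factors are known to act, and that of B2M because it holds the same letters while its RNA differed little between the groups. Each run gives the 250 bases before the annotated start, from RefSeq on GRCh38.p14, plus strand. They lie at chr9:5450292-5450541 and chr15:44711267-44711516. Capitals mark matches to the interferon-stimulated response element core (GAAA, any 2 bases, GAAA) on either strand.
CD274: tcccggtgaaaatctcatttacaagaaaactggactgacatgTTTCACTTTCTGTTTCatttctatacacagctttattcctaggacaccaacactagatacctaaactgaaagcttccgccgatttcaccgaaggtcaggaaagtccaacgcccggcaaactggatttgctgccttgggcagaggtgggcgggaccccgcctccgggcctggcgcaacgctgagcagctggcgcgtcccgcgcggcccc
B2M: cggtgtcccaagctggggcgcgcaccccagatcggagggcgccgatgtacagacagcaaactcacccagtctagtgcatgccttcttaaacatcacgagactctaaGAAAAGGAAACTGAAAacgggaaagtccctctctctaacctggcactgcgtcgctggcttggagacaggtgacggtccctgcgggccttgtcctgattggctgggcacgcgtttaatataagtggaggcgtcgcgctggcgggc

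In both sequences the capitals are 2 matches that overlap, at bases -208 to -199 and -202 to -193 before the start of CD274 and at bases -144 to -135 and -138 to -129 before that of B2M. Over all 35116 promoter windows of 300 bases (250 before the start and 50 after it), 3.57% held at least 1 match and 0.259% held 2 or more. Promoter windows were found for 9 of the 10 genes. PDCD1LG2 had none and was not searched for any motif. LGALS9 also held a match, from base -9 to 1. The STAT dimer motif TTCNNNGAA was found on either strand in CD274 (bases -125 to -117) and in 7.66% of all windows. The NF-kB consensus, in 7.73% of all windows, matched B2M and CD276, and the AP-1 motif TGANTCA, in 7.71%, matched VTCN1. The E-box CACGTG, in 7.26%, matched no member that had a window. These are matches of letters and not measured binding sites.

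CD274 RNA was higher in every array given CDK9 siRNA than in every control array of its set. Its signal in replicates 1 to 4 was 6.41, 6.79, 6.99 and 7.08 with CDK9 siRNA and 5.09, 6.04, 5.64 and 5.98 with control siRNA. The groups differed by 1.13 ± 0.10 on the log2 scale (SE, n = 4 per group), or 2.19-fold with a 95% interval of 1.86 to 2.57. This was the rise ranked 7 among 18417 genes. The 4 same-numbered pairs differed by 1.32, 0.75, 1.35 and 1.09, so the array set 1 pair lay within the range of the others. The SD over the 3 arrays of set 2 was 0.21 in the controls and 0.15 with CDK9 siRNA. By its mean signal over all arrays CD274 lay at percentile 31.9 of all genes, just above the range called dim. It cleared that range only through the CDK9 siRNA arrays. All 4 control values lay below the cut of 6.14, so the rise began at a dim level.

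PDCD1LG2 encodes PD-L2, the other ligand of PD-1, and lies next to CD274 on chromosome 9. It read 6.73, 7.29, 7.10 and 7.28 in the CDK9 siRNA arrays and 6.18, 6.80, 6.87 and 6.94 in the controls. Here too the groups did not overlap within either set. They differed by 0.40 ± 0.07 (log2, SE, n = 4 per group), 1.32-fold with a 95% interval of 1.19 to 1.47, a smaller difference than that of CD274. The pairs differed by 0.55, 0.49, 0.23 and 0.34.

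**Figure D1:**
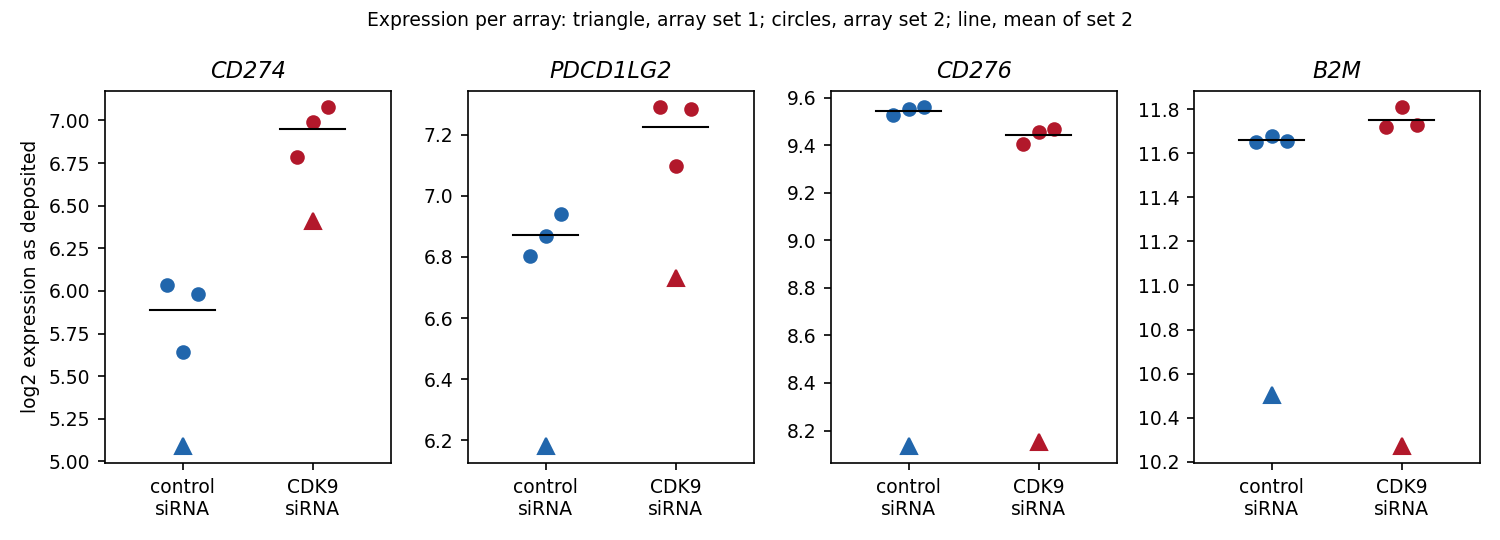
Deposited log2 expression of CD274, PDCD1LG2, CD276 and B2M in each array (vertical axis, a separate scale for each gene), for control and CDK9 siRNA. Triangles are array set 1, circles are array set 2 and lines are means of set 2; CD274 and PDCD1LG2 are higher with CDK9 siRNA in both sets, while B2M is higher in set 2 and lower in set 1.

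CD276 and VTCN1 encode B7-H3 and B7-H4, relatives of PD-L1 that act on T cells through less well defined receptors. CD276 read 8.15, 9.41, 9.46 and 9.47 with CDK9 siRNA and 8.13, 9.53, 9.55 and 9.56 in the controls. Its arrays of set 2 were all slightly lower with CDK9 siRNA while the pair of set 1 was level, and the difference over both sets was -0.07 ± 0.05 (SE, n = 4 per group). The 95% interval, -0.18 to 0.04, spans 0. VTCN1 was dim, at percentile 10.5 of all genes, with values of 4.23, 5.08, 4.81 and 4.73 against 4.28, 4.98, 5.07 and 5.03. Its groups overlapped, with a difference of -0.13 and an interval of -0.30 to 0.05.

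CD47, the ligand of the macrophage receptor SIRPA, read 8.56, 9.50, 9.65 and 9.70 with CDK9 siRNA and 8.73, 9.49, 9.45 and 9.44 in the controls. It was lower with CDK9 siRNA in set 1 and higher in set 2, by -0.17 in the former and 0.15 on average in the latter. The difference over both was 0.07 with an interval of -0.09 to 0.24. SIRPA, the receptor, differed by -0.28 ± 0.09 (SE, n = 4 per group, adjusted p = 0.0777) and did not pass. SIRPA differed by -0.68 in set 1 and by -0.15 in set 2.

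PVR and NECTIN2 are adhesion proteins of the nectin family that bind both the inhibitory receptor TIGIT and the activating receptor CD226. PVR read 8.99, 9.02, 9.22 and 9.11 with CDK9 siRNA and 8.78, 9.03, 9.04 and 8.98 in the controls. Replicate 2 lay among the controls and the other 3 CDK9 siRNA arrays lay above those of their set, for a difference of 0.12 ± 0.06 (SE, n = 4 per group). Its interval of -0.005 to 0.254 just includes 0. NECTIN2 read 8.18, 8.96, 9.03 and 8.99 against 8.43, 9.01, 9.04 and 8.97. Its arrays of set 2 overlapped, and the difference of -0.07 (interval -0.20 to 0.06) came mostly from the -0.25 of set 1.

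LGALS9 encodes galectin-9, a secreted lectin that binds TIM-3 and other receptors of T cells. It was the dimmest of the 10 genes relative to the array, at percentile 8.69, with 3.98, 4.88, 4.79 and 5.16 against 4.0, 4.66, 4.81 and 4.80. The groups overlapped, and the difference of 0.13 had an interval of -0.06 to 0.33.

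B2M and CMTM6 act on the surface display of other proteins. B2M read 10.3, 11.7, 11.8 and 11.7 with CDK9 siRNA and 10.5, 11.7, 11.7 and 11.7 in the controls, and was among the brightest genes (percentile 98.0). The 3 pairs of set 2 differed by 0.07, 0.13 and 0.07 and the pair of set 1 by -0.23, for 0.01 ± 0.07 (SE, n = 4 per group) over both. CMTM6, which binds PD-L1 at the membrane and protects it from lysosomal breakdown, read 8.13, 9.50, 9.48 and 9.55 against 8.03, 9.54, 9.48 and 9.51. Its difference of 0.03 had the interval -0.08 to 0.14.

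**Figure D2:**
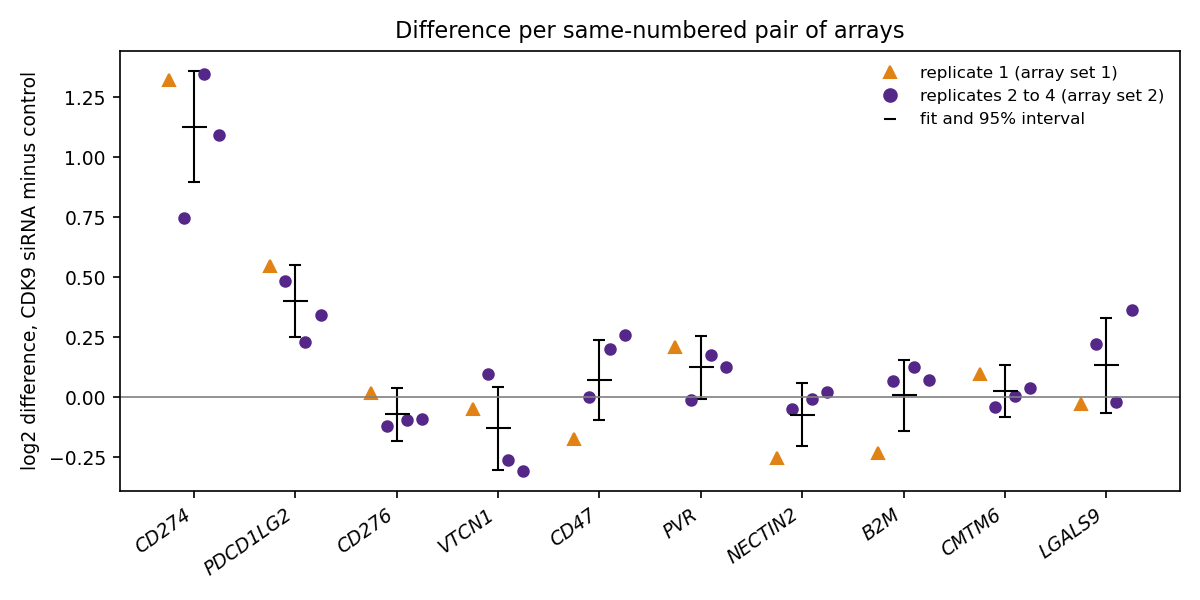
Log2 difference (CDK9 siRNA minus control, vertical axis) of each of the 10 genes for the 4 same-numbered pairs of arrays; triangles are replicate 1 and circles replicates 2 to 4, and bars are the fitted difference with its 95% interval. CD274 and PDCD1LG2 are above 0 in all 4 pairs, and the intervals of the other 8 genes span 0.

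Counted by the threshold used for all genes (limma, Benjamini-Hochberg adjusted p under 0.05), 2 of the 10 genes were higher and 0 lower, where 6.73% of all genes were higher, 7.47% lower and 14.2% either. Groups apart in both array sets were likewise seen for these 2 genes, both higher, against 11.5% of all genes higher, 13.8% lower and 25.3% either. The same sign in all 4 pairs was seen for the same 2 genes, against 33.0% of all genes. Since the contrast had a part in choosing the genes, nothing is read from these counts. The other 8 genes had differences between -0.13 and 0.13, and the median of the 10 was 0.05, against -0.0016 over all genes.

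The genes on either side of CD274 were examined by a rule that did not use their values: the nearest 8 measured genes on each side on chromosome 9, in RefSeq order. PLGRKT, the nearest measured gene on the side away from PDCD1LG2, encodes a plasminogen receptor and rose. It read 6.45, 7.70, 7.91 and 7.97 with CDK9 siRNA against 5.83, 7.04, 7.12 and 7.18 in the controls. The groups did not overlap in either set and differed by 0.72 ± 0.07 (log2, SE, n = 4 per group, adjusted p = 0.000376), or 1.64-fold. PLGRKT passed whichever array was left out, with adjusted p values of 0.000815 to 0.00254. The 250 bases before the start of PLGRKT held 0 matches to the interferon-stimulated response element core.

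Beyond PDCD1LG2, ERMP1, an endoplasmic reticulum peptidase, rose by 0.30 ± 0.07 (SE, n = 4 per group, adjusted p = 0.0195). Its rise came from array set 2 (0.39) more than from set 1 (0.04), and it lost its call without CDK9 siRNA array 2, 3 or 4 or control array 2 or 3, with adjusted p values up to 0.0677. A replicate block also ended the call of ERMP1 (adjusted p = 0.0555), which left PLGRKT as the neighbour that passed. RIC1, which lies between PDCD1LG2 and ERMP1, encodes a factor of Golgi traffic. It differed by 0.47 in set 2 and -0.25 in set 1 and did not pass (adjusted p = 0.147). With set 2 fitted alone RIC1 passed (adjusted p = 0.00538). JAK2, the kinase of the interferon-gamma receptor, lies further out on the PLGRKT side and differed by -0.11 (adjusted p = 0.376). Of the 15 neighbours other than PDCD1LG2, 2 were higher and 0 lower. Of all genes, 6.73% were higher, 7.47% lower and 14.2% either. With set 2 fitted alone, 3 of these neighbours were higher and 0 lower. The median of these 15 was 0.07.

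**Figure D3:**
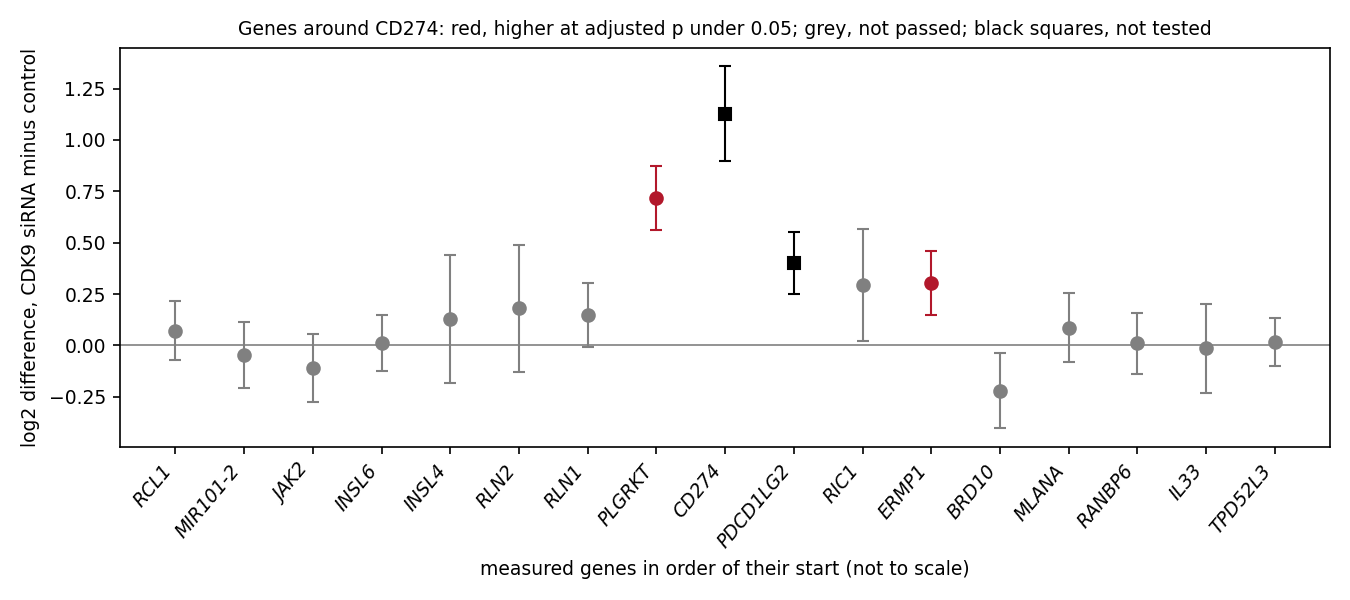
Log2 difference (CDK9 siRNA minus control, vertical axis, with 95% interval) of CD274 and the 8 measured genes on each side, in order of their start and not to scale. PLGRKT (0.72) and ERMP1 (0.30) passed the threshold and are red, CD274 (1.13) and PDCD1LG2 (0.40) are black squares given without a test, and the others are grey.

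The genes of the route from the interferon receptors to CD274 went both ways, with differences from -0.39 to 0.40. Of 22 measured, 1 was higher and 4 lower (22.7%, against 14.2% of all genes), with a median of -0.02. The 2 falls of PTPN2 (-0.39 ± 0.05 SE, adjusted p = 0.00158) and PTPN1 (-0.25, adjusted p = 0.00669) were in phosphatases that switch off JAK and STAT signalling. IRF9, the DNA-binding part of the type I interferon factor, fell by 0.37 (adjusted p = 0.00635), and the kinase JAK1 fell by 0.23 (adjusted p = 0.0211). JAK1 lost its call without CDK9 siRNA array 3 or control array 3 or 4 (adjusted p up to 0.0643) and under a replicate block (0.0598). IFNAR1, a chain of the type I interferon receptor, rose by 0.40 (adjusted p = 0.00196). The interferon-gamma receptor chains IFNGR1 (0.02, adjusted p = 0.890) and IFNGR2 (0.14, adjusted p = 0.226) did not pass, nor did STAT3 (-0.19, adjusted p = 0.0728) or IRF1 (0.03, adjusted p = 0.903). The 0.03 of IRF1 averages opposite values, -0.43 in set 1 and 0.18 in set 2, which differed by the interaction test of limma (adjusted p = 0.0438). IFNGR2 was likewise -0.13 in set 1 and 0.23 in set 2, where it passed with set 2 fitted alone (adjusted p = 0.0146), though its interaction did not (adjusted p = 0.0896).

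Of 22 other transcription factors known to act on CD274, 3 were higher and 3 lower (27.3%), with a median of -0.07. Without either array of set 1, 2 were higher and 7 lower. NFE2L2, the oxidative stress factor NRF2, rose by 0.46 (adjusted p = 0.000676), and MYC by 0.42 (adjusted p = 0.00298). HIF1A, the hypoxia factor, rose by 0.18 (adjusted p = 0.0445) and lost its call whichever of the 8 arrays was left out (adjusted p of 0.0580 to 0.119), and with arrays centred on their medians, quantile normalized again or blocked by replicate (0.0969). The immediate-early factors fell, FOS by 1.41 (adjusted p = 0.000693), EGR1 by 0.95 (adjusted p = 0.000209) and JUN by 0.52 (adjusted p = 0.000488). The NF-kB subunits RELA (-0.01, adjusted p = 0.937) and NFKB1 (-0.07, adjusted p = 0.419) did not pass.

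Among 22 genes that act on PD-L1 protein, 1 was higher and 4 lower (22.7%), with a median of -0.05. CMTM4, the relative of CMTM6 that can take its place in holding PD-L1 at the membrane, read 7.91, 8.86, 8.98 and 9.02 with CDK9 siRNA and 7.16, 8.5, 8.43 and 8.52 in the controls. Its groups did not overlap in either set and it rose by 0.54 ± 0.07 (SE, n = 4 per group, adjusted p = 0.00124), while CMTM6 differed by 0.03. The deubiquitinase OTUB1 (-0.27, adjusted p = 0.00576), the ubiquitin ligase subunit BTRC (-0.26, adjusted p = 0.00959), the lysosomal sorting adaptor HIP1R (-0.25, adjusted p = 0.0160) and the deubiquitinase USP22 (-0.18, adjusted p = 0.0446) fell. OTUB1 and USP22 are known to stabilise PD-L1, and BTRC and HIP1R to take part in its breakdown. HIP1R lost its call without CDK9 siRNA array 3 or control array 2 or 4 (adjusted p up to 0.0578), and USP22 whichever array was left out (0.0688 to 0.137), with arrays centred on their medians and under a replicate block (0.110).

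Class I presentation genes other than B2M showed 3 higher and 1 lower of 18 (22.2%), with a median of 0.01. That median averages opposite values, -0.09 in set 1 and 0.10 in set 2. With set 2 fitted alone, 6 were higher and 0 lower. TAPBP, the tapasin that edits peptides on class I molecules, rose by 0.37 ± 0.05 (SE, n = 4 per group, adjusted p = 0.00219), ERAP1, which trims peptides, by 0.33 (adjusted p = 0.0109), and the peptide transporter subunit TAP2 by 0.20 (adjusted p = 0.0359). The partner subunit TAP1 differed by -0.04 (adjusted p = 0.748). The chaperone CALR fell by 0.21 (adjusted p = 0.0419). CALR lost its call whichever array was left out (adjusted p of 0.0607 to 0.125) and with arrays centred on their medians. TAP2 lost its call without CDK9 siRNA array 2 or 4 or control array 2, 3 or 4 (adjusted p up to 0.106). A replicate block ended the calls of CALR (adjusted p = 0.0904) and TAP2 (0.0902), leaving 2 of the 18. The class I heavy chain genes were not analysed here.

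**Figure D4:**
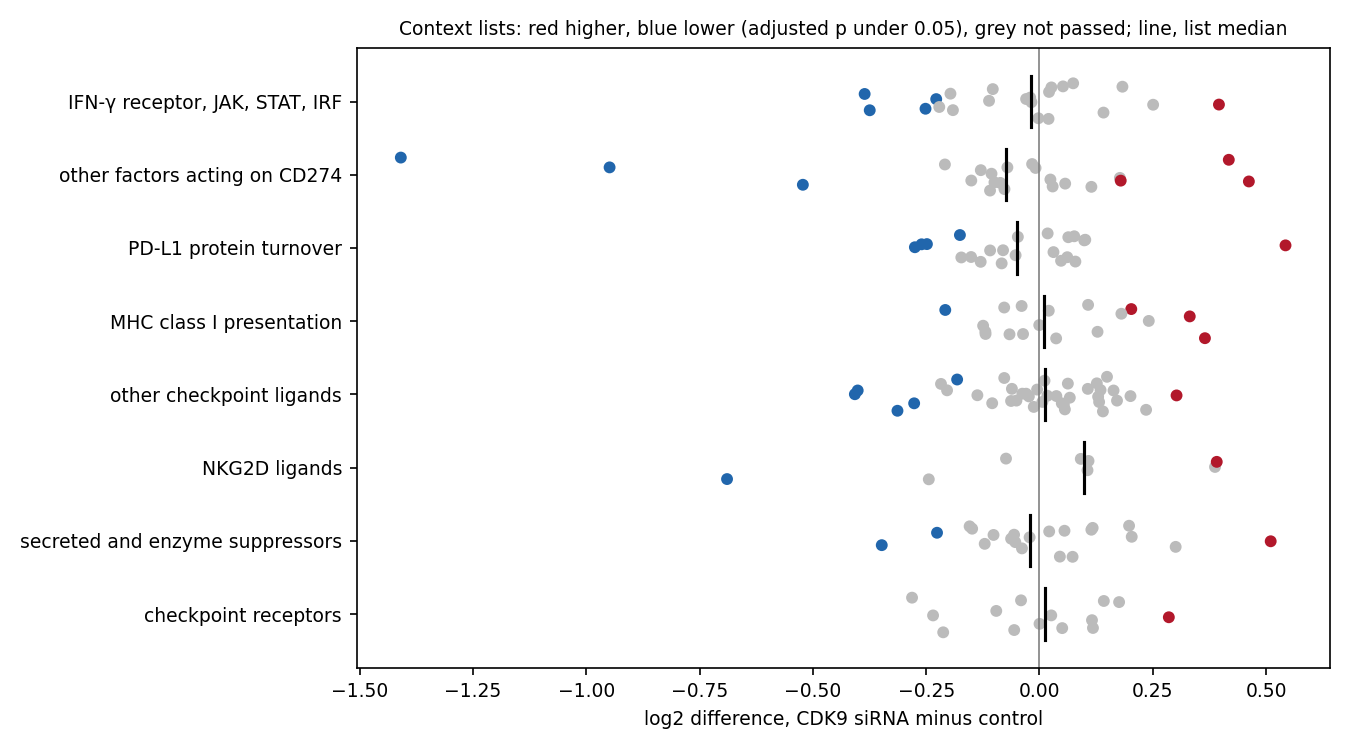
Log2 difference (CDK9 siRNA minus control, horizontal axis) of each measured gene of 8 lists around the checkpoint ligands; red points are higher and blue points lower at an adjusted p under 0.05, grey points did not pass, and black lines are list medians. The medians lie between -0.07 and 0.10, and the largest fall is that of FOS.

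Of 39 other ligands of lymphocyte receptors, 1 was higher and 5 lower (15.4%), with a median of 0.01. Without CDK9 siRNA replicate 2, 3 were higher and 2 lower, and without control replicate 3, 0 were higher and 1 lower. ILDR2, a relative of the B7 proteins, fell by 0.41 ± 0.05 (SE, n = 4 per group, adjusted p = 0.00113), and CD70, the ligand of CD27, rose by 0.30 (adjusted p = 0.0155). THBS1, a secreted ligand of CD47, fell by 0.31 (adjusted p = 0.0185). The adhesion proteins CADM1 (-0.40, adjusted p = 0.0328) and CD58 (-0.28, adjusted p = 0.0388) and the lectin LGALS3 (-0.18, adjusted p = 0.0347) also fell. CADM1 differed by -0.87 in set 1 and -0.25 in set 2.

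Several of these calls lay near the threshold. When each array was left out, the differences ran from 0.27 to 0.34 for CD70, -0.26 to -0.39 for THBS1, -0.25 to -0.45 for CADM1, -0.17 to -0.20 for LGALS3 and -0.19 to -0.32 for CD58. CD70 lost its call without control replicate 3 (adjusted p = 0.0563), THBS1 without CDK9 siRNA array 3 or control array 3 or 4 (up to 0.0617), and CADM1 without replicate 2 or 3 of either group (up to 0.0827). LGALS3 lost it without replicate 2, 3 or 4 of either group (up to 0.109), and CD58 without any array other than CDK9 siRNA replicate 4 (up to 0.0981). LGALS3 and CD58 also lost theirs with arrays centred on their medians. A replicate block ended the calls of CADM1 (adjusted p = 0.0812), CD58 (0.0930) and LGALS3 (0.0858), leaving 3 of the 39. The costimulatory B7 genes CD80 (0.14, adjusted p = 0.572), CD86 (0.13, adjusted p = 0.207) and ICOSLG (-0.22, adjusted p = 0.249) did not pass, and CD80 and CD86 were dim.

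The stress ligands of NKG2D, an activating receptor of natural killer cells, went different ways. MICA read 7.97, 8.55, 8.5 and 8.61 with CDK9 siRNA and 8.86, 9.09, 9.28 and 9.16 in the controls. Every CDK9 siRNA array lay below the controls of its set, and the groups differed by -0.69 ± 0.07 (log2, SE, n = 4 per group, adjusted p = 0.000444), a fold of 0.620. ULBP3 rose by 0.39 (adjusted p = 0.00162), and both passed whichever array was left out. The other 6 of the 8 genes did not pass, so 25% of the list did, against 14.2% of all genes. Among the 6, MICB differed by -0.24 (adjusted p = 0.0865) and ULBP2 by 0.39 (adjusted p = 0.0543). The pair of replicate 3 gave 0.90 for ULBP2, and the other pairs gave 0.30, 0.18 and 0.17. MICA and MICB are close in sequence to each other, so their probe sets are less certain than others.

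Among 21 genes of secreted or enzymatic suppressors of lymphocytes, 1 was higher and 2 lower (14.3%), near the share of all genes, with a median of -0.02. TGFB1, the cytokine TGF-beta 1, fell by 0.35 (adjusted p = 0.00160), and the macrophage growth factor CSF1 fell by 0.23 (adjusted p = 0.0153). TDO2, which breaks down tryptophan, rose by 0.51 (adjusted p = 0.0102) from a dim level. CSF1 lost its call without control replicate 3 (adjusted p = 0.0637). Of 14 receptors for these ligands 10 were dim, 1 was higher and 0 lower (7.14%, against 14.2% of all genes). The higher one was the dim gene SIRPG (0.29, adjusted p = 0.0179). SIRPG lost its call without CDK9 siRNA replicate 2 or control replicate 4 (adjusted p up to 0.0555). Without CDK9 siRNA replicate 2, 0 receptors were higher and 2 lower.

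The markers of cell types are given beside these results, against 14.2% of all genes called, 6.73% higher and 7.47% lower. Of 21 leukocyte markers 0 were higher and 1 lower (4.76%), the lysosomal gene CD68 (-0.31, adjusted p = 0.0248), which lost its call without replicate 2, 3 or 4 of either group (adjusted p up to 0.0758). Of 12 epithelial and endothelial markers 2 were higher (16.7%), the dim genes EPCAM (0.32, adjusted p = 0.0366) and TEK (0.30, adjusted p = 0.0247). EPCAM lost its call without CDK9 siRNA array 2, 3 or 4 or control array 3 or 4 (up to 0.106) and with the mean of its probe sets (0.21, adjusted p = 0.216), and TEK without CDK9 siRNA array 3 or 4 or control array 2 or 3 (up to 0.0816). Without CDK9 siRNA replicate 4, 0 of these markers were higher and 1 lower. Of 12 mesenchymal and osteoblast markers 0 were higher and 6 lower (50%), with a median of -0.23. The falls were FN1 (-0.81, adjusted p = 0.000517), CDH11 (-0.75, adjusted p = 0.000417), RUNX2 (-0.60, adjusted p = 0.000344), COL1A1 (-0.51, adjusted p = 0.00110), PRRX1 (-0.28, adjusted p = 0.0424) and VIM (-0.19, adjusted p = 0.0323). PRRX1 and VIM lost their calls without replicate 2, 3 or 4 of either group (adjusted p up to 0.0975 and 0.102), and VIM also with arrays centred on their medians. A replicate block ended the calls of CD68 (adjusted p = 0.0645), EPCAM (0.0841) and VIM (0.0808). The part of this shift in the values of the checkpoint ligands was not tested.

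The genes whose pattern over the 8 arrays was most like that of CD274 were sought by Pearson's r after subtraction of each array set's mean, among 12891 genes that were not dim. The 8 highest were PINK1-AS (0.994), RNF168 (0.994), PLAA (0.994), STAC (0.993), COX15 (0.992), RWDD2B (0.992), BMAL2 (0.991) and PPP2R2C (0.991). Their direction follows from this choice, and their differences ran from 1.14-fold (PLAA) to 1.64-fold (RWDD2B). An r above 0.95 was reached by 321 of the 12891 genes. Only the set means were subtracted, so the siRNA difference itself entered r, which rests on 8 arrays. PLGRKT had an r of 0.960 with CD274 and PDCD1LG2 one of 0.914. Among the other members r was highest for PVR (0.780) and lowest for VTCN1 (-0.649).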

How the data were processed

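Biotin-labelled total RNA of 8 U2OS cultures was measured on Affymetrix human gene arrays. The authors deposited log2 expression values of 33297 probe sets. The submitters' processing notes name RMA, Affymetrix Expression Console 1.1, limma and the build hg19; the sources used here do not give what each was used for or which arrays were normalized together. The platform annotation gave exactly 1 symbol for 19460 probe sets, and others were left out. Each of 18417 genes is represented by its brightest probe set.

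limma 3.58.1 (R 4.3.3) was fitted to all genes with array set as blocking term; moderated two-sided p-values were adjusted by Benjamini-Hochberg (threshold 0.05). The fit was checked on simulated data. The array sets follow a gap in the array numbers of the sample descriptions. The members, gene lists and this block were chosen with earlier results of these data known. The design text calls the replicates biological, and 0 pairs of arrays had mostly identical values. The titles number the replicates alike in the groups. Over genes, same-numbered arrays deviated from their group's mean together, with r of 0.822, 0.537, 0.494 and 0.607, over the limit of 0.1, but of 0.11, -0.01 and 0.17 within array set 2, so most of the pairing is that of the array sets. Values under a replicate block are given where they end a call.

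Named genes were all members, CDK9, up to 6 passing genes of each list plus fixed context genes, the 8 measured neighbours on each side of CD274 and the 8 genes most like it. Promoter letters came from RefSeq tables (GRCh38.p14). Python 3.11.15 with pandas 2.3.3, numpy 2.4.6 and, for plots, matplotlib 3.10.9 made the tables. Alternatives were the replicate number as a block, no block, centring, renewed quantile normalization, array set 2 alone, means of probe sets, removal of dim genes, an intensity trend and leaving out each array.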

Additional observations from a re-analysis of the deposited data

Results flagged for a closer look

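After subtraction of each array's median, control replicate 1 stood apart from the other 3 controls for CD276, VTCN1, CD47, PVR and NECTIN2, with a gap of 0.880, 0.837, 0.872, 0.931 and 0.873 of the range of its group. PVR had the widest gap, at 2.98 above the array median in control replicate 1 and 1.94 to 2.01 in replicates 2 to 4. In CD276 replicate 1 was the lowest, at 2.33 against 2.50 to 2.53. For B2M the difference of the replicate 1 pair (-0.23) lay apart from those of the other 3 pairs (0.07 to 0.13), with a gap of 0.831 of the range. All of these set array set 1 apart. Chance alone marks about 1 in 20 groups of like arrays. Here replicate 1 was compared with arrays of the other set, which differs in scale, so that rate does not apply.

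The difference between the siRNA groups itself differed between the array sets for 6 genes of the lists, by the interaction test of limma over all genes: CADM1 (adjusted p = 0.0485), ETV4 (0.0317), FOS (0.0355), IRF1 (0.0438), SPARC (0.0304) and TGFB2 (0.0289). CADM1 differed by -0.87 in set 1 and -0.25 in set 2, FOS by -0.67 and -1.66, and SPARC by -0.70 and -0.07. The sets went opposite ways for ETV4 (0.54 in set 1 and -0.11 in set 2), IRF1 (-0.43 and 0.18) and TGFB2 (-0.56 and 0.03). Over all genes the same test passed 395 of 18417, and nothing is read from the count of 6. Array set 1 holds 1 array of each group.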

How the results depend on the processing

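The difference of CD274 stayed between 1.05 and 1.2 under all alternatives, and that of PDCD1LG2 between 0.35 and 0.46 when each array was left out. Calls depended more on the settings. Without a block, limma passed 0 of 18417 genes, 0 in every list and 0 neighbours of CD274, though 28 higher and 23 lower genes had an unadjusted p below 0.05; differences are the same there, and the scale difference between array sets enters the residual. A replicate block let 1688 genes pass in place of 2615. The lists then had 1 epithelial and endothelial marker, 0 leukocyte markers, 2 class I presentation genes, 3 other checkpoint ligands and 1 neighbour (PLGRKT), and 12 of the 43 passing list genes and neighbours, each with its value in the results, lost their calls.

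With an intensity trend the counts were 8 for the interferon route, 2 receptors and 2 leukocyte markers, and the renewed quantile normalization also gave 8 for the interferon route. In array set 2 alone 2 leukocyte markers passed. Means of probe sets gave 1 epithelial and endothelial marker, and removal of dim genes 1 such marker and 0 receptors. Leaving out each array gave 1520 (without control replicate 3) to 3331 genes (without either array of set 1). The lists ranged over 0 to 2 receptors, 0 to 2 epithelial and endothelial markers, 0 to 2 leukocyte markers, 2 to 6 class I genes, 1 to 7 other ligands and 3 to 5 turnover genes, with 1 to 3 neighbours of CD274. The alternatives for the neighbours were chosen after seeing the data. Apart from B2M, whose difference ran from -0.02 to 0.09, the differences of the members kept their sign, and so did those of the 43 genes, and no alternative moved the median of all genes by more than 0.02.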
